A study of Mus musculus with 24 samples.

Results

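The cytosolic ribosomal protein genes were followed here through the slow-twitch soleus (SOL) and the fast-twitch gastrocnemius (GAS) of young and old mice. Members were taken by gene symbol, as Rpl, Rps or Rplp followed by a number with its paralog suffix, together with Rpsa and Rps27rt. S6 kinases and entries marked as pseudogenes were dropped. The rule found 85 of the 18795 genes in the table: 34 of the small subunit and 51 of the large subunit, of which 3 form the stalk. RNA sequencing was performed on whole muscle of male C57BL/6 mice in 4 groups: young exercised (YE) and old exercised (OE) mice, which ran on a treadmill for 4 weeks, and young control (YC) and old control (OC) mice, which did not. By the labels, young mice were 9 weeks and old mice 84 weeks old. Each group gave 3 SOL and 3 GAS libraries, 24 in all, from 12 mice that each gave both muscles. Each group thus holds 3 mice, and the p-values below rest on the spread between mice within groups, pooled over the groups of a fit. Fits across the muscles took the SOL and GAS libraries of a mouse as unpaired. Only the paralog ratios and an alternative fit paired them.

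The cytosolic ribosome is built from a small subunit, which reads the mRNA, and a large subunit, which joins amino acids, and each holds ribosomal RNA and a nearly fixed set of proteins. The mRNAs of these proteins are among the most abundant in a cell, and many begin with a run of pyrimidines, the 5′ terminal oligopyrimidine (TOP) tract, through which mTORC1 signalling controls their translation. In skeletal muscle the number of ribosomes is a main determinant of how much protein a fiber can make, and a few core proteins have a muscle-enriched or low-abundance paralog.

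Such a tract, counted as a C at the annotated start followed by 4 or more C or T bases, was present in 15 of the 64 members with a RefSeq start window, which is 23.4%. It was present in 3.01% of the 27025 genes in the RefSeq promoter table and in 3.07% of the 14132 genes of the expression table that matched it. The 6 windows below, of the GRCm38.p6 assembly, hold the 10 bases before the annotated start and the first 20 bases of the transcript, 5′ to 3′ on the strand of the gene, with the tract in capitals. They show tracts of different length and the copies and paralog to which the results return.
Rps6: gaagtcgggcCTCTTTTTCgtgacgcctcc
Rpl38: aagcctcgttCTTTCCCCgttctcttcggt
Rplp2: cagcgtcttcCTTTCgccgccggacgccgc
Rps27: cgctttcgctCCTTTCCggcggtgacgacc
Rps27rt: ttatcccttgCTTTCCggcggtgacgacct
Rpl3l: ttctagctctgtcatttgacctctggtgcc
The windows lie on chromosome 4 (86857348 to 86857377, minus strand) for Rps6, on chromosome 11 (114668570 to 114668599, plus strand) for Rpl38 and on chromosome 7 (141447641 to 141447670, plus strand) for Rplp2. They lie on chromosome 3 (90213629 to 90213658, minus strand) for Rps27, on chromosome 9 (114982720 to 114982749, minus strand) for Rps27rt and on chromosome 17 (24727816 to 24727845, plus strand) for Rpl3l. In these RefSeq windows the starts of Rps27 and Rps27rt are offset by 1 base. Rps27rt read from its first transcribed base matches Rps27 read from the second, while the bases before differ. In the GENCODE transcripts used below, 36 bases lie before the coding sequence of Rps27 and 32 before that of Rps27rt, so the offset depends on the annotation. Rpl3l, the muscle paralog of Rpl3, has no tract at its annotated start. A missing tract says only that these letters are not at the annotated start, since a start that is off by a few bases hides it.

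Levels are given as FPKM (fragments mapped to a transcript, scaled to its length in kilobases and to the mapped total), which adjusts for gene length and library size. Differences are given on the deposited log2(FPKM + 1) values, which were quantile normalized over all 24 libraries, so that a difference need not equal the ratio of the FPKM values. The FPKM of a library summed to between 386616 and 449858 in SOL and between 483898 and 521160 in GAS. The 10 most abundant genes held 16.1% to 19.4% of it in SOL and 31.7% to 38.3% in GAS. No member was among those 10 genes in any library. As only FPKM and log2 values were used, the sequencing depth is unknown and counting error is not given. In whole muscle, fewer cells of a type and less RNA per cell cannot be told apart.

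Most members were abundant in both muscles. The median of the members' mean FPKM over the 24 libraries was 218, against 1.87 over all genes. Mean FPKM was at least 100 in 71 members, between 1 and 100 in 11, and under 1 in 3. The most abundant were Rplp1, an acidic protein of the stalk that recruits elongation factors, with a mean of 645 FPKM, Rps29 of the small subunit with 555 FPKM, and Rplp0, the base of the stalk, with 487 FPKM. The least abundant were Rpl39l, a paralog of Rpl39 known from the testis, with 0.0342 FPKM, Rpl32l with 0.343 FPKM and Rpl26 with 0.665 FPKM. Rpl26 encodes a core protein of the large subunit, and its level stood far below those of the other core members. Whether reads of Rpl26 were counted at a copy outside the symbol rule was not tested, so its FPKM may be only part of the signal of the gene. FPKM reached 1 in at least 3 libraries for 82 members, and for 11637 of all genes.

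Together the 85 members held a smaller share of the FPKM in SOL than in GAS. Their share was lowest at 3.27%, median 3.60% and highest at 4.05% in the 12 SOL libraries, against 3.98%, 4.40% and 4.92% in the 12 GAS libraries. The ranges overlapped at 1 end, where a SOL YE library reached above the lowest GAS YC library. By group, the share was 3.66% ± 0.106 in SOL YC and 4.15% ± 0.188 in GAS YC (SD, n = 3 each). It was 3.70% ± 0.350 in SOL YE and 4.52% ± 0.347 in GAS YE, with the same n. It was 3.50% ± 0.200 in SOL OC and 4.42% ± 0.0396 in GAS OC. It was 3.42% ± 0.198 in SOL OE and 4.64% ± 0.123 in GAS OE. In each of the 4 groups of mice the SOL mean was thus below the GAS mean. No test is given for this share, since it sums over members that were chosen with earlier results known.

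The gap was wider when the 10 most abundant genes of each library were set aside. Of the rest, the members held 3.93% to 5.03% in SOL and 6.46% to 7.36% in GAS, and the ranges did not overlap. Summed over members, FPKM came to 14726 ± 1521 in SOL libraries and 22144 ± 1638 in GAS libraries (SD, n = 12 each). The balance between the subunits differed little, as the FPKM of the large subunit was 1.36 ± 0.0130 times that of the small subunit in SOL and 1.37 ± 0.0201 times in GAS.

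**Figure D1:**
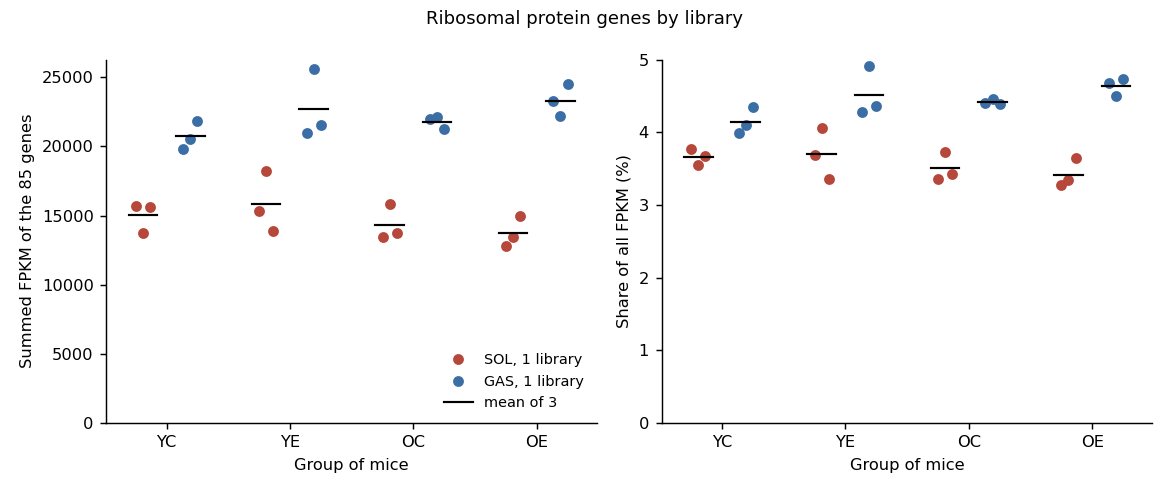
Summed FPKM of the 85 members (left panel, y axis) and their share of all FPKM (right panel, y axis, percent), by group of mice (x axes). Each point is 1 library of SOL (left of each pair) or GAS, and each bar is the mean of 3. Outside the 10 most abundant genes all 12 SOL libraries lay between 3.93% and 5.03% and all 12 GAS libraries between 6.46% and 7.36%.

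Gene by gene, the comparison of muscles asked whether slow-twitch and fast-twitch muscle differ in these mRNAs within each group of mice. Most members were lower in SOL in all 4 groups. In SOL YC/GAS YC, 70 of the 85 members passed the test of limma at a Benjamini-Hochberg adjusted p under 0.05, 68 lower and 2 higher in SOL, where 38.3% of all genes passed and 19.4% passed as lower. In SOL YE/GAS YE, 73 members passed, all lower, where 34.2% of all genes passed and 16.7% as lower. In SOL OC/GAS OC, 72 passed, 70 lower and 2 higher, where 37.4% of all genes passed and 17.8% as lower. In SOL OE/GAS OE, 74 passed, all lower, where 38.7% of all genes passed and 19.1% as lower.

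The members therefore moved mostly one way, whereas all genes together were split almost evenly. The median log2 difference of the members was -0.53 in YC, -0.55 in YE, -0.53 in OC and -0.62 in OE, and the median over all genes was 0.00 in each. 64 members were lower in SOL in all 4 groups, and 80 had a negative difference in all 4. The share of all genes that met either criterion, or that passed in none of the 4, was not counted. With the deposited log2 values, only Rpl6, Rpl23, Rpl29, Rpl39l and Rps3a1 passed the test in none. All of these but Rpl39l were picked for naming after their values were seen. On the deposited log2 values all 12 SOL libraries lay below all 12 GAS libraries for 58 members (68.2%), as was the case for 9.42% of all genes.

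**Figure D2:**
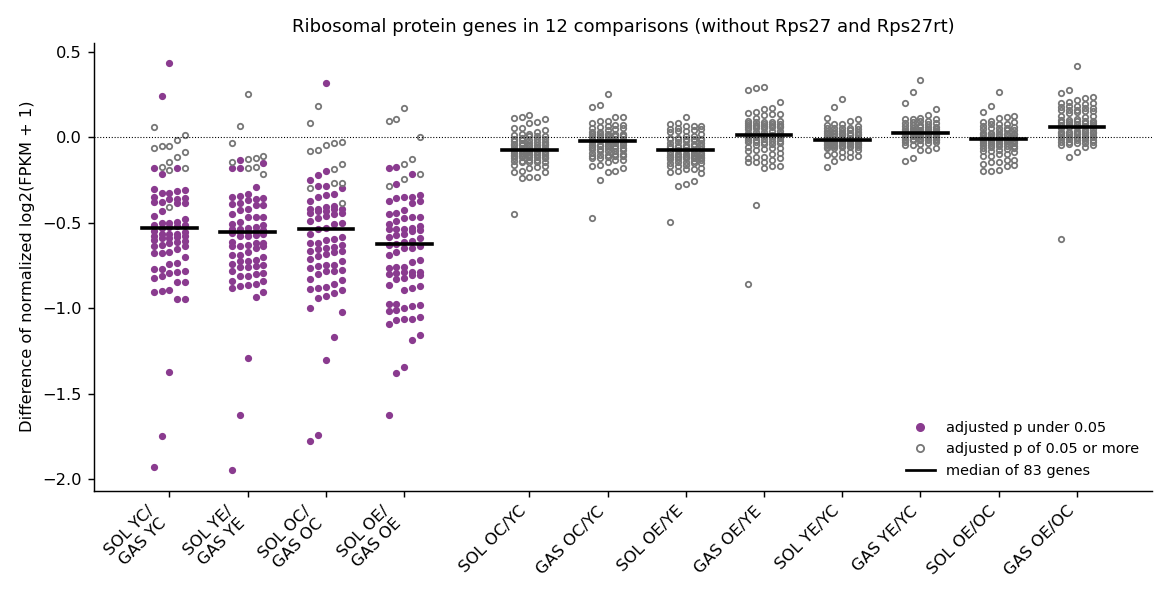
Differences of the deposited log2 values (y axis) for 83 members, without Rps27 and Rps27rt, in 12 comparisons (x axis). Each point is 1 member, filled where the adjusted p was under 0.05, and each bar is the median. The 4 comparisons of SOL with GAS sit mostly below 0, and the 8 comparisons by age or exercise sit around 0 with no filled point.

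Markers of the fiber types and of other cells were counted in the same comparisons, and several of these lists differed between the muscles. All 12 genes of the slow contractile list were higher in SOL in all 4 groups of mice, and their summed FPKM was 27959 to 37988 in SOL against 476 to 7422 in GAS. Of 13 fast contractile genes, 6 or 7 were lower and 1 higher in SOL, and their sum was 27931 to 40663 FPKM in SOL against 115603 to 148800 in GAS. Of 8 endothelial markers, 6 or 7 were higher in SOL, with sums of 133 to 203 FPKM in SOL against 79.5 to 126 in GAS. Of 10 macrophage markers, 0, 3, 10 and 7 were lower in SOL in YC, YE, OC and OE, with sums of 29.9 to 73.0 FPKM in SOL against 37.0 to 102 in GAS. None of 8 lymphocyte markers passed in any group, with sums of at most 4.86 FPKM in SOL and 1.78 FPKM in GAS. Of 10 fibroblast and matrix markers, 3 were higher in SOL YC, 3 were lower in SOL OC and 1 was lower in SOL OE. Of 8 markers each, 1 or 2 adipocyte genes were higher in SOL, at most 2 red blood cell and 2 Schwann cell genes were lower, and 1 red blood cell gene was higher in SOL YE. Of 8 satellite cell markers, 2 to 4 were higher and 1 or 2 lower. The part of fiber type or of these cells in the result was not tested.

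Among the proteins of the small subunit, 26, 28, 29 and 29 of 34 members were lower in SOL in YC, YE, OC and OE, with median log2 differences of -0.57, -0.60, -0.61 and -0.68. Rps14, a protein of the platform of the small subunit, stood out. Its FPKM was 123, 115 and 164 in SOL YC, against 383, 421 and 441 in GAS YC. Over the 12 libraries of a muscle the lowest, median and highest FPKM were 99.4, 120.3 and 215 in SOL, against 383, 413 and 502 in GAS, so that no SOL library came near a GAS library. The log2 difference was -1.75 (SE 0.18, limma adjusted p = 4.83e-07) in YC, -1.63 in YE, -1.74 in OC and -1.63 in OE.

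Rps27a, which is made as a fusion with ubiquitin, was also lower in SOL in every group. It had 88.6, 110.0 and 139 FPKM as lowest, median and highest in SOL, against 195, 209 and 236 FPKM in GAS, with no overlap. Its log2 difference was between -0.90 (YC, SE 0.09, limma adjusted p = 4.36e-07) and -1.0 (OE, SE 0.09, limma adjusted p = 1.19e-07). Rpsa, which also serves as a laminin receptor, had 136, 166 and 201 FPKM in SOL, against 209.7, 233 and 274 FPKM in GAS. Its log2 difference was -0.38 (SE 0.05, limma adjusted p = 5.51e-06) in YC and -0.53 (SE 0.05, limma adjusted p = 1.25e-07) in OE. Rps29, the second most abundant member, had 379, 465 and 656 FPKM in SOL, against 521, 624 and 817 FPKM in GAS, and here the FPKM ranges overlapped. Its log2 difference was between -0.53 and -0.61 in the 4 groups. Without quantile normalization the call was lost in YC (-0.31, limma adjusted p = 0.169), YE (-0.34, 0.134) and OC (-0.44, 0.0553).

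Rps28, which lies at the mRNA exit of the small subunit, was lower in SOL in the test but rested on single libraries in 3 groups. In YC it had 170.3, 156 and 225 FPKM in SOL, against 317, 305 and 415 FPKM in GAS, a log2 difference of -0.95 (SE 0.23, limma adjusted p = 0.00332). It was -0.75 in YE and OC and -0.62 (limma adjusted p = 0.0431) in OE. In YE the call was lost without SOL YE replicate 4 (log2 difference -0.51, limma adjusted p = 0.122) or without GAS YE replicate 2 (-0.62, limma adjusted p = 0.0821). In OC it was lost without SOL OC replicate 5 (-0.51, limma adjusted p = 0.116) or without GAS OC replicate 4 (-0.67, limma adjusted p = 0.0622). In OE it was lost without SOL OE replicate 1 or 2 or GAS OE replicate 1 or 2, with limma adjusted p between 0.0555 and 0.192.

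Other members of the small subunit differed little. Rps6, the protein phosphorylated by the S6 kinases, had 122, 114 and 115 FPKM in SOL YC, against 119, 114 and 122 FPKM in GAS YC. Its log2 difference was -0.08 (95% interval -0.19 to 0.02) in YC and -0.08 (-0.18 to 0.03) in OC, neither past the test, and -0.18 (SE 0.05, limma adjusted p = 0.0071) in OE. In YE it was -0.15 (limma adjusted p = 0.0245), a call that was lost when SOL YE replicate 4, GAS YE replicate 2 or GAS YE replicate 4 was left out (limma adjusted p of 0.063 to 0.106) and with the mouse as a block (0.0805). The OE call of Rps6 was lost with the equal-variance test (adjusted p = 0.0946) and with only the OE libraries in the fit (limma adjusted p = 0.0735). Rps3a1 had 268, 313 and 338 FPKM as lowest, median and highest in SOL, against 297, 315 and 356 FPKM in GAS. Its log2 difference was between -0.03 and 0.10, and the 95% interval of the largest, that of OE, ran from -0.02 to 0.22. So on the deposited log2 values the difference seen in most members was not seen in Rps3a1, at a similar level of expression. Median-ratio scaling, an alternative to quantile normalization, divides SOL libraries by 1.05 to 1.13 and GAS libraries by 0.846 to 0.983. The difference of Rps3a1 under that scaling is not given here.

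Rps13 (chromosome 7, 116331507 to 116334190) was the exception in direction. It had 334, 281 and 282 FPKM in SOL YC, against 225, 244 and 285 FPKM in GAS YC, and 296, 353 and 327 FPKM in SOL OC, against 263, 287 and 276 FPKM in GAS OC. The log2 difference was 0.24 (SE 0.07, limma adjusted p = 0.00933) in YC and 0.32 (SE 0.07, limma adjusted p = 0.00106) in OC, and it did not pass in YE (0.07) or OE (0.11). Its direction depended on the scaling: with median-ratio scaling in place of quantile normalization it was -0.055 in YC and 0.074 in OC, neither past the test. In YC the call was also lost without SOL YC replicate 1 (limma adjusted p = 0.0608) or GAS YC replicate 1 (limma adjusted p = 0.0543).

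In the large subunit without the stalk, 39, 42, 38 and 42 of 48 members were lower in SOL in YC, YE, OC and OE, with median log2 differences of -0.52, -0.53, -0.47 and -0.57. Rpl22l1 (chromosome 3, 28805508 to 28807424), the paralog of the RNA-binding protein Rpl22, was lower by the widest margin in YC and YE. Its FPKM was 16.2, 10.8 and 13.7 in SOL YC, against 46.7, 52.1 and 44.3 in GAS YC, a log2 difference of -1.93 (SE 0.32, limma adjusted p = 8.02e-05). In SOL OE it was 10.7, 12.0 and 14.1, against 44.0, 48.1 and 11.5 in GAS OE, so that GAS OE replicate 3 lay at the level of SOL. The log2 difference in OE was -1.38 (limma adjusted p = 0.00178) with that library and -1.96 (SE 0.18, limma adjusted p = 2.05e-07) without it, and with only the 6 OE libraries in the fit it did not pass (limma adjusted p = 0.129).

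Rpl41, Rpl39 and Rpl12 were also among the largest falls. Rpl41, the shortest of the ribosomal proteins, had 188, 207 and 241 FPKM in SOL OE, against 486, 456 and 567 FPKM in GAS OE, a log2 difference of -1.18 (SE 0.11, limma adjusted p = 9.25e-08). Rpl39, which lines the exit tunnel, had 66.7, 83.7 and 120.2 FPKM as lowest, median and highest in SOL, against 139, 164 and 200.3 FPKM in GAS, and its log2 difference was between -0.86 in YE and -1.09 in OE. Rpl12, which sits at the base of the stalk, had 152, 173 and 214 FPKM in SOL, against 306, 328 and 379 FPKM in GAS, and its log2 difference was between -0.80 in OC and -0.93 in YE. For each of them the SOL and GAS ranges did not overlap.

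Rpl3 (chromosome 15, 80077781 to 80083406), which reaches the peptidyl transferase centre, was higher in SOL in YC. It had 59.9, 56.5 and 55.9 FPKM in SOL YC, against 36.0, 39.1 and 43.3 FPKM in GAS YC, a log2 difference of 0.44 (SE 0.10, limma adjusted p = 0.00233). The difference was 0.26 (limma adjusted p = 0.0642) in YE, 0.18 (0.187) in OC and 0.17 (0.205) in OE. With median-ratio scaling the YC difference was 0.23 (limma adjusted p = 0.0503), no longer past the threshold. Rpl10, whose loading completes the large subunit, went with most members, with 243, 279.6 and 299.7 FPKM in SOL, against 370.4, 419.8 and 473 FPKM in GAS, and log2 differences from -0.51 in YC to -0.65 in OE.

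All 3 stalk proteins were lower in SOL in all 4 groups, with medians of -0.82, -0.81, -0.83 and -1.06 in YC, YE, OC and OE. Rplp1 (chromosome 9, 61913283 to 61914510) had 429, 347 and 474 FPKM in SOL YC, against 766, 841 and 1002 FPKM in GAS YC, a log2 difference of -1.37 (SE 0.13, limma adjusted p = 1.53e-07). Over 12 libraries it had at most 664 FPKM in SOL and at least 766 FPKM in GAS, and its log2 difference was -1.29, -1.30 and -1.35 in YE, OC and OE. Rplp2, its partner in the acidic dimer, had 346, 307 and 375 FPKM in SOL OE, against 805, 671 and 724 FPKM in GAS OE, a log2 difference of -1.06 (SE 0.14, limma adjusted p = 6.23e-06). Rplp0 differed least, with log2 differences of -0.49 in YC (SE 0.10, limma adjusted p = 0.000507), -0.54 in YE, -0.44 in OC and -0.42 in OE. Its FPKM ranges overlapped, with up to 568 in SOL and at least 491 in GAS. The YC call was lost without quantile normalization (-0.32, limma adjusted p = 0.102). The YE call was lost with the equal-variance test (adjusted p = 0.0679). These differences were smaller in size than those of the dimer proteins, a contrast that was not tested.

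**Figure D3:**
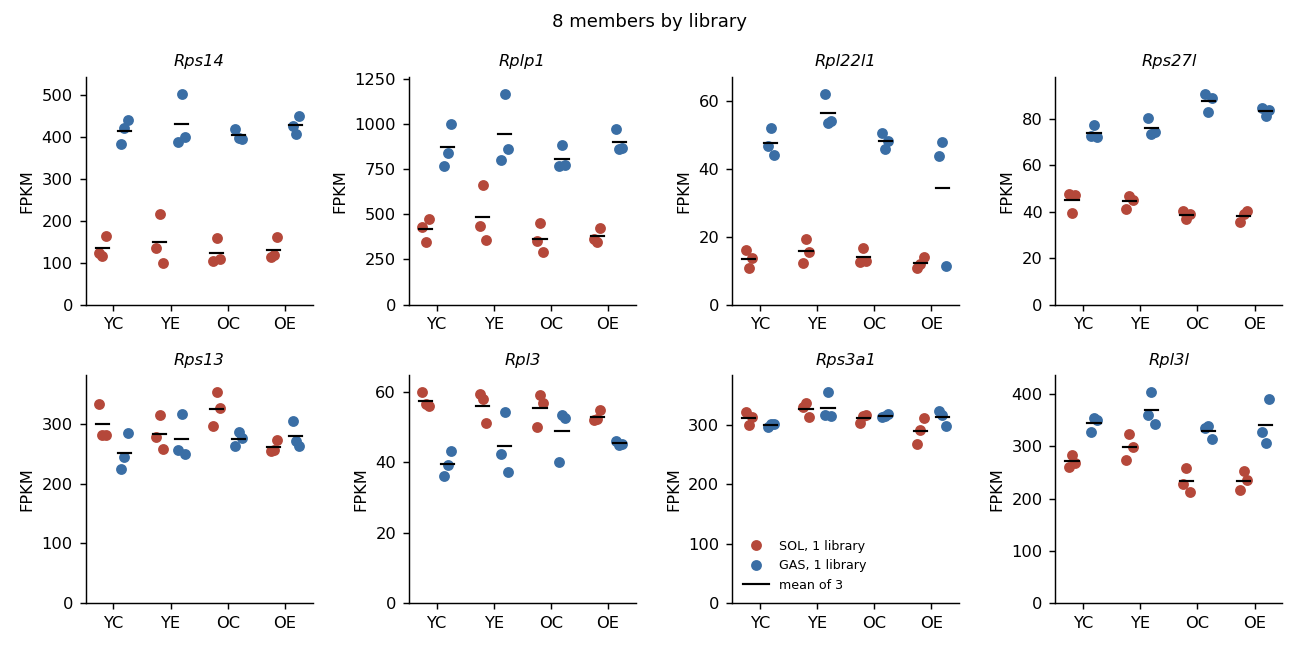
FPKM (y axes, from 0) of 8 members by group of mice (x axes). Each point is 1 library of SOL (left of each pair) or GAS, and each bar is the mean of 3. Rps14 had at most 215 FPKM in SOL and at least 383 FPKM in GAS, Rpl3 in YC was higher in SOL, and the levels of Rps3a1 overlapped.

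The remaining paralogs and the members of lowest level differed by less, or from low values. Rpl7 had 204, 237 and 268 FPKM as lowest, median and highest in SOL, against 262, 278 and 309.8 FPKM in GAS. It was lower in SOL in OC (log2 difference -0.20, limma adjusted p = 0.00214) and OE (-0.17, 0.00591) and did not pass in YC (-0.11, 0.0644). In YE it passed (-0.13, limma adjusted p = 0.0306), but not with the mouse as a block (0.0667) or without SOL YE replicate 2 or 4 or GAS YE replicate 1 or 4 (0.0717 to 0.105). The OE call of Rpl7 was lost with the equal-variance test (adjusted p = 0.0784) and with only the OE libraries in the fit (limma adjusted p = 0.0762). Rps4x, the X-linked copy of Rps4, had 209, 242 and 292 FPKM in SOL, against 265, 287 and 340.2 FPKM in GAS. It passed in YC (-0.18, limma adjusted p = 0.0454) and OC (-0.22, 0.0139), but with the mouse as a block in neither (0.107 in YC, 0.0504 in OC). The YC call was lost without any of SOL YC replicates 1, 2 and 3 and GAS YC replicates 1 and 2 (0.0615 to 0.193), and the OC call without SOL OC replicate 4 (0.0601) or GAS OC replicate 5 (0.0663). These small differences thus stood close to the threshold.

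At the low end, Rps4l had 1.52, 2.55 and 4.67 FPKM in SOL, against 2.19, 2.85 and 5.48 FPKM in GAS, with wide overlap. It passed as lower in SOL in OE (log2 difference -0.71, limma adjusted p = 0.0042) and in YE (-0.62, 0.0138), the YE call being lost without SOL YE replicate 2 or GAS YE replicate 2. Without quantile normalization both calls were lost (limma adjusted p = 0.133 in OE and 0.31 in YE). Rpl7l1 had 9.60 to 13.5 FPKM in SOL and 10.4 to 13.8 FPKM in GAS, and passed in OE alone (-0.22, limma adjusted p = 0.0396), a call lost without SOL OE replicate 1 or 2 or GAS OE replicate 1 or 3. Rpl32l had at most 0.576 FPKM in SOL and 0.833 FPKM in GAS and passed as lower in SOL in YE, OC and OE, in OC only with both SOL OC replicate 3 and GAS OC replicate 3 in the fit. Rpl26, at 0.332 to 0.787 FPKM in SOL and 0.358 to 1.09 FPKM in GAS, passed as lower in SOL in YC, YE and OE, a difference of the listed value that, for the reason given with its level, is not read as one of the mRNA. Rpl39l was listed at 0 in most libraries and reached 0.113 FPKM in SOL and 0.399 FPKM in GAS. On the log2(FPKM + 1) scale such low values give small differences whatever their ratio.

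Shorter members tended to differ more. Coding length without the stop codon was matched for 81 members, leaving out Rps27 and Rps27rt. Across these members, which share their libraries, Spearman's rho between coding length and the mean log2 difference of SOL from GAS was 0.467, and it was 0.369 across the 10244 of all genes with a length and a mean FPKM of at least 1. The median was -0.71 for the 40 members shorter than 468 bases and -0.48 for the 41 others. The mean FPKM of a member had no such relation (rho -0.0102). Values per gene are not independent, so these are descriptions.

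Rps27 and Rps27rt show how near-identical copies limit the values of single members. Rps27 encodes a zinc-finger protein of the small subunit and lies on chromosome 3 (90212671 to 90213651, minus strand) with 4 exons. Rps27rt lies on chromosome 9 (114982366 to 114982739, minus strand) as 1 exon, the form of a copy made from a processed mRNA, and its annotated transcript ends in 31 A. In the GENCODE transcripts for GRCm38 the copies align over 341 bases with 0 mismatches, and their coding sequences of 255 bases are identical. That shared coding sequence is printed because it is what the aligned reads had to be divided over, with 4 bases on each side of the 3 exon junctions of Rps27 in capitals, the stretches that only a spliced alignment places on chromosome 3.
Rps27: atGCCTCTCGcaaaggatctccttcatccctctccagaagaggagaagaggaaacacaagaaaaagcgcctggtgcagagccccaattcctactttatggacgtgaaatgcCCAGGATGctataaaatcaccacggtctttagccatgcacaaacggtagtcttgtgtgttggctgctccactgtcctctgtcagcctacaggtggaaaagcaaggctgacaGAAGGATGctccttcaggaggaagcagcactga

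Each library listed nearly all of the signal at one of the copies and almost none at the other. In SOL, 11 libraries had 109 to 175 FPKM at Rps27 and 0.0566 to 2.75 FPKM at Rps27rt, and the other library, SOL YE replicate 1, had 1.40 FPKM at Rps27 and 155 FPKM at Rps27rt. In GAS, 6 libraries had 235 to 330.2 FPKM at Rps27 and 0.143 to 1.82 FPKM at Rps27rt, and the other 6 had 1.05 to 1.58 FPKM at Rps27 and 286 to 369 FPKM at Rps27rt. All 3 GAS OC libraries were listed at Rps27rt, as were GAS YC replicate 1, GAS YE replicate 1 and GAS OE replicate 2. The level of either copy alone was therefore all or nothing by library. The listed copy changed within SOL YE, GAS YC, GAS YE and GAS OE, and was the same throughout SOL YC, SOL OC, SOL OE and GAS OC.

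The calls of the single copies followed this switch. In OC, Rps27 passed as higher in SOL, with a log2 difference of 6.02 (SE 2.08, limma adjusted p = 0.0294), a call lost without any of the 6 OC libraries (limma adjusted p between 0.0606 and 0.0691). Rps27rt passed as lower in SOL, with a log2 difference of -7.68 (SE 2.25, limma adjusted p = 0.0111). Neither is read as a difference of the mRNA. Summed, the copies had 158 ± 12.3 FPKM in SOL OC and 333 ± 32.6 FPKM in GAS OC (SD, n = 3 each).

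The summed copies were lower in SOL in all 4 groups, as most members were. The sum was lowest at 109, median 153 and highest at 175 FPKM in SOL, against 236, 299 and 370.3 FPKM in GAS, with no overlap. After summing, the log2 difference was -0.78 in YC (SE 0.13, limma adjusted p = 0.000117), -0.90 in YE, -0.99 in OC and -1.11 in OE (limma adjusted p = 2.35e-06). The same could apply to Rpl34, with 10.3 to 14.7 FPKM in SOL against 15.1 to 24.7 FPKM in GAS, while Rpl34-ps1, which the symbol rule leaves out, had 96.7 to 161 FPKM in SOL against 186 to 263 FPKM in GAS.

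**Figure D4:**
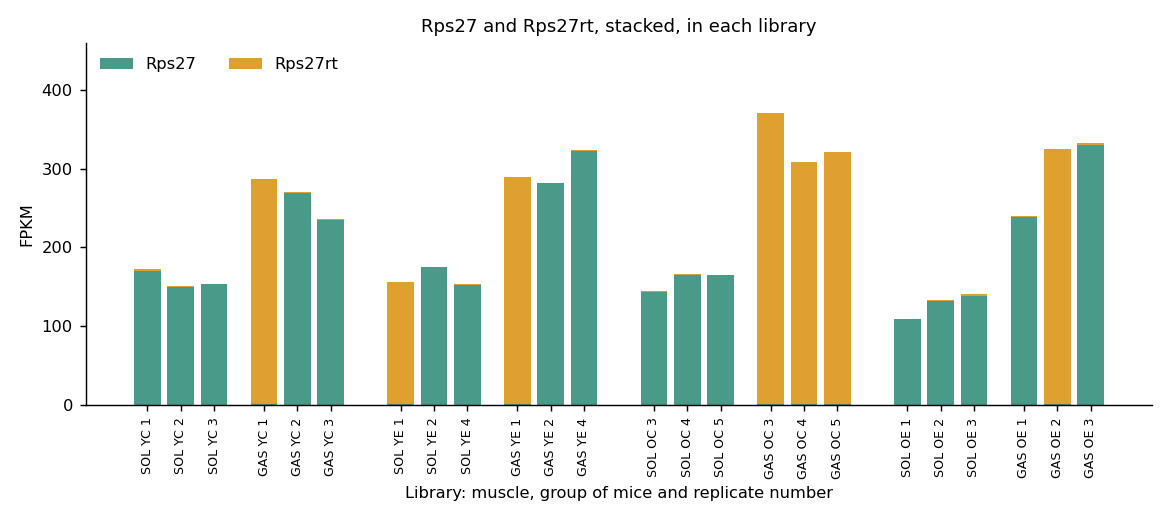
FPKM of Rps27 and Rps27rt, stacked (y axis), in each of the 24 libraries (x axis). In each library nearly the whole bar belongs to 1 of the copies, and its height was 109 to 175 FPKM in SOL and 236 to 370.3 FPKM in GAS whichever copy it was.

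Paralogs were then set against their core partner within each library, where a factor common to all genes of a library cancels. These ratios were added after the values had been seen. SOL and GAS libraries of the same group and replicate number were taken as 1 mouse, since the labels name no mouse. Each mouse thus gave 1 difference. An exact sign-flip permutation test over the 12 mice, two-sided, was used. Its smallest possible p was 0.000488, with Benjamini-Hochberg adjustment over the 5 ratios. Rpl3l (chromosome 17, 24727826 to 24736143), the striated-muscle paralog of Rpl3, outweighed Rpl3 in both muscles. The ratio of Rpl3l to Rpl3 was 3.73 to 5.85 (median 4.59) in SOL, against 5.96 to 9.20 (median 8.23) in GAS. It was lower in SOL in 12 of 12 mice, by 0.75 ± 0.20 on the log2 scale (SD, n = 12, exact permutation adjusted p = 0.00122). Rpl3l itself was lower in SOL, with 212, 260.3 and 323 FPKM as lowest, median and highest in SOL, against 306, 342 and 404 FPKM in GAS, and in YC the members of this pair passed the test in opposite directions.

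The ratio of Rpl22l1 to Rpl22 was 0.286 to 0.447 (median 0.339) in SOL, against 0.234 to 1.31 (median 0.997) in GAS. It was lower in SOL in 11 of 12 mice, with a mean log2 difference of -1.34 ± 0.62 (exact permutation adjusted p = 0.00163), and the exception was the mouse of GAS OE replicate 3. Rpl22 itself had 32.0 to 44.1 FPKM in SOL against 43.1 to 52.8 FPKM in GAS, a smaller difference than that of its paralog. The ratio of Rpl7l1, a paralog of Rpl7, to Rpl7 was 0.0470 to 0.0536 in SOL against 0.0378 to 0.0444 in GAS. It was higher in SOL in 12 of 12 mice by FPKM (mean log2 difference 0.33 ± 0.083, exact permutation adjusted p = 0.00122), but with the deposited log2 values the mean was 0.03 (exact permutation p = 0.254).

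The other pairs showed no such shift. The ratio of Rps27l, whose human counterpart is a target of the tumour suppressor p53, to the summed Rps27 and Rps27rt was 0.222 to 0.327 in SOL, against 0.230 to 0.352 in GAS (mean log2 difference 0.03 ± 0.19, exact permutation adjusted p = 0.741). Rps27l itself was lower in SOL along with its partners, with 35.6, 40.2 and 47.8 FPKM in SOL, against 72.1, 80.9 and 90.6 FPKM in GAS, and log2 differences from -0.84 in YE to -1.17 in OC. The ratio of Rps4l to Rps4x was 0.00606 to 0.0176 in SOL, against 0.00735 to 0.0191 in GAS (mean log2 difference -0.05 ± 0.48, exact permutation adjusted p = 0.741). With the deposited log2 values that mean was -0.35 (exact permutation p = 0.00586).

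**Figure D5:**
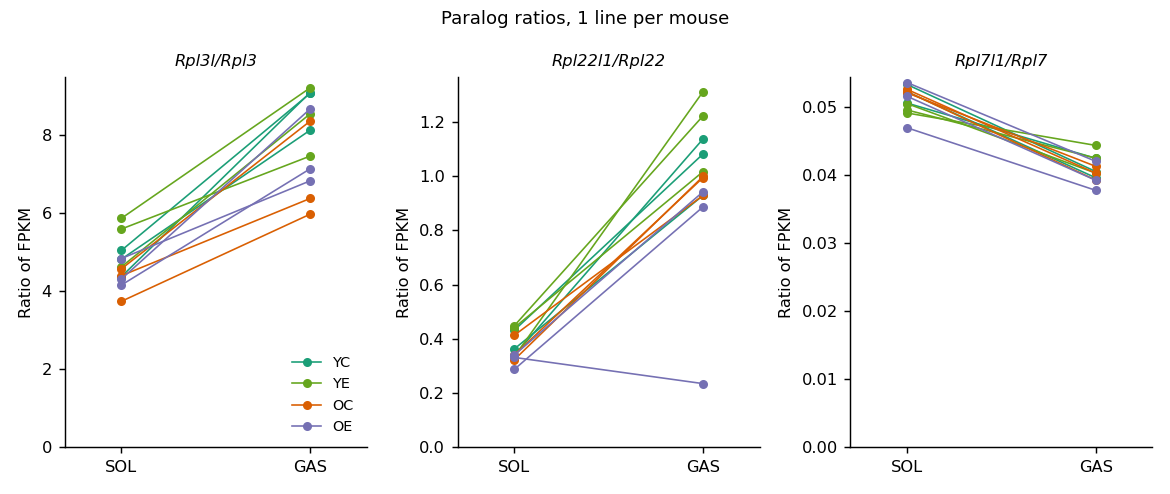
Ratio of the FPKM of a paralog to that of its partner (y axes, from 0) in SOL (left) and GAS (right). The pairs drawn are Rpl3l with Rpl3, Rpl22l1 with Rpl22 and Rpl7l1 with Rpl7. Each line is 1 of 12 mice, coloured by group. The ratio of Rpl3l to Rpl3 was lower in SOL in 12 of 12 mice, and that of Rpl22l1 to Rpl22 in 11 of 12.

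The comparisons by age asked whether these mRNAs differ between old and young mice within a muscle. No member passed the test of limma in any of the 4. In SOL OC/YC 0 of 85 members passed (4.36% of all genes did) and 5 had an unadjusted p under 0.05. In GAS OC/YC it was 0 (0.0426% of all genes) and 5. In SOL OE/YE it was 0 (2.78% of all genes) and 6, and in GAS OE/YE 0 (0.165% of all genes) and 5. The equal-variance test per gene, the kind of test the study used, also called 0, with 6, 3, 4 and 8 at an unadjusted p under 0.05 in the same order.

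The members' median log2 difference was -0.07 in SOL OC/YC, -0.02 in GAS OC/YC, -0.08 in SOL OE/YE and 0.01 in GAS OE/YE, with 0.00 over all genes in each. For 78, 80, 78 and 80 of the 85 members the 95% interval of the difference lay within a 1.5-fold change in either direction. For those members a larger change of the log2 value lay outside the interval. A smaller one was not resolved with 3 mice a group. For members under 1 FPKM the added 1 keeps such intervals narrow, here and in the comparisons below, whatever the ratio of the FPKM values.

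The lowest p in SOL belonged to Rpsa. It had 147, 172 and 153 FPKM in SOL OC, against 181, 166 and 177 FPKM in SOL YC, with overlap (log2 difference -0.15, SE 0.05, limma adjusted p = 0.115). It had 136, 151 and 156 FPKM in SOL OE, against 175, 201 and 166 FPKM in SOL YE, without overlap (log2 difference -0.15, SE 0.05, limma adjusted p = 0.13). Next came Rps27l in SOL OC/YC (-0.20, limma adjusted p = 0.123) and Rps4l in SOL OE/YE (-0.50, limma adjusted p = 0.147). In GAS OC/YC these were Rplp1 (-0.25, limma adjusted p = 0.294) and Rpl3l (-0.20, limma adjusted p = 0.423). In GAS OE/YE they were Rpl19 (0.21, limma adjusted p = 0.156) and Rpl41 (0.28, limma adjusted p = 0.219).

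When control and exercised mice were pooled, 6 old against 6 young, which was tried after seeing the data, 5 members passed in SOL and all were lower in old mice (5.88% of the members, 12.3% of all genes). They were Rpsa (log2 difference -0.15, limma adjusted p = 0.0216), Rps4l (-0.47, 0.0297), Rps27l (-0.19, 0.0299), Rpl3l (-0.22, 0.0391) and Rpl7 (-0.12, 0.0475). The members' share was below that of all genes. In GAS 0 passed, with 9 at an unadjusted p under 0.05 (1.60% of all genes passed). Fibroblast and matrix markers moved with age in SOL, 8 of 10 being lower in SOL OC/YC and 2 of 10 in SOL OE/YE, and their part in these values was not tested.

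The comparisons by exercise asked whether 4 weeks of treadmill running changed these mRNAs. No member passed the test of limma in any of the 4. In SOL YE/YC it was 0 (0% of all genes) with 1 at an unadjusted p under 0.05, and in GAS YE/YC 0 (0.0160% of all genes) with 1. In SOL OE/OC it was 0 (0.00532% of all genes) with 4, and in GAS OE/OC 0 (0.0160% of all genes) with 13. The equal-variance test called 0 after the same adjustment, with 1, 2, 2 and 10 at an unadjusted p under 0.05 in the same order. The medians were -0.01, 0.02, -0.01 and 0.06, and 80, 80, 80 and 79 members had an interval within a 1.5-fold change.

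All 13 members of GAS OE/OC at an unadjusted p under 0.05 were higher in GAS OE. They made 15.3% of the members, against 4.66% of all genes. The lowest p was that of Rplp2, which had 805, 671 and 724 FPKM in GAS OE, against 557, 556 and 536 FPKM in GAS OC, without overlap (log2 difference 0.42, SE 0.08, limma adjusted p = 0.689). Rpl41 had 486, 456 and 567 FPKM in GAS OE, against 408, 449.8 and 388 FPKM in GAS OC (0.28, limma adjusted p = 0.939). The other members at that unadjusted threshold had log2 differences of 0.15 to 0.26. None withstood the adjustment over 18795 genes.

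The other exercise comparisons had no member near the threshold. The lowest p belonged to Rps13 (-0.14, limma adjusted p = 0.55) and Rpl18 (-0.12, 0.554) in SOL YE/YC, and to Rpl32l (0.34) and Rpl9 (0.09) in GAS YE/YC, both with a limma adjusted p of 1. In SOL OE/OC they were Rps13 (-0.20, limma adjusted p = 0.728) and Rpl24 (-0.19, 0.782). Pooled over ages, 6 exercised against 6 control, 0 members passed in SOL (0.00532% of all genes, 3 members at an unadjusted p under 0.05) and 0 in GAS (0.0266%, 8 members).

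Whether an effect differed between SOL and GAS was tested as an interaction. No member passed the test of limma for the effect of OC/YC (0.239% of all genes), OE/YE (0.138%), YE/YC (0%) or OE/OC (0.0266%), with 1, 5, 1 and 2 members at an unadjusted p under 0.05. The medians of SOL minus GAS effects were -0.05, -0.07, -0.02 and -0.08. The lowest p was that of Rpl19 for OE/YE (-0.33, SE 0.09, limma adjusted p = 0.242), followed by Rps27l for OC/YC (-0.32, SE 0.09, limma adjusted p = 0.237) and for OE/YE (-0.32, limma adjusted p = 0.313). Next were Rps19 for OC/YC (-0.27, limma adjusted p = 0.596), Rpl32l (-0.51) and Rps13 (-0.18) for YE/YC, and Rpl19 and Rps13 (-0.21 each) for OE/OC, the last 4 values with a limma adjusted p of 1. The 95% interval lay within a 1.5-fold change for 78, 71, 77 and 74 members.

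Genes that belong to the ribosome under other names, or that make, load or drive it, were counted in the same comparisons. Of 7 other ribosomal or ribosome-bound proteins outside the symbol rule, 6, 6, 6 and 5 were lower in SOL in YC, YE, OC and OE, and none was higher. Rpl36al, a paralog of Rpl36a, had 69.6 ± 9.70 FPKM in the 12 SOL libraries and 157 ± 11.1 FPKM in the 12 GAS libraries (SD), with a log2 difference of -1.05 in YC (SE 0.10, limma adjusted p = 1.19e-07). Rack1, a scaffold on the small subunit, had 176 ± 26.6 FPKM in SOL and 298 ± 27.5 FPKM in GAS. Naca, which binds nascent chains at the exit tunnel, did not pass in any group, with 125 ± 19.2 FPKM in SOL and 116 ± 13.4 FPKM in GAS.

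In YC, genes of the other lists passed in both directions. Of 9 elongation factors, 4 were lower and 1 higher in SOL YC/GAS YC, among them Eef2k, the kinase that inhibits elongation (-1.11, limma adjusted p = 3.09e-07), Eef1a2, the muscle and nerve form of the factor that brings aminoacyl-tRNA (-0.71, 1.87e-05), and Eif5a (-0.37, 7.79e-05). Of 31 initiation factors, 11 were lower and 6 higher, among them the helicase Eif4a1 (0.46, limma adjusted p = 6.07e-06) and the Eif3 subunits Eif3i (-0.74, 2.6e-06) and Eif3f (-0.51, 3.18e-05). Of 42 ribosome biogenesis genes, 19 were lower and 8 higher, led by Nhp2 (-0.86, limma adjusted p = 9.8e-07), Nop16 (-0.81, 4.19e-06) and Polr1b, a subunit of RNA polymerase I (-0.61, 4.56e-06). Of 23 mTORC1 and growth control genes, 8 were lower and 6 higher. Rptor (0.77, limma adjusted p = 9.21e-08) and Mtor (0.57, 1.21e-05), both of mTORC1, were higher in SOL, and Mstn, the growth inhibitor myostatin, was lower (-4.87, 1.67e-09). In YE, OC and OE, 9, 8 and 5 initiation factors were lower and 8, 10 and 10 higher in SOL. In the same groups 16, 14 and 16 biogenesis genes were lower and 8, 8 and 10 higher, and 4, 6 and 6 mTORC1 and growth control genes were lower and 6, 6 and 7 higher. Of the elongation factors, 4, 4 and 5 were lower and 0, 0 and 1 higher. The balance of the lists thus differed between groups in count, and no difference between groups or between lists was tested.

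With age in SOL a few genes of these lists passed. In SOL OC/YC, where 4.36% of all genes passed, these were 3 of 31 initiation factors (Eif3b, Eif4b and Eif5b), 2 of 42 biogenesis genes (Ncl and Nop14), 3 of 23 mTORC1 and growth control genes (Eif4ebp2, Tsc1 and Sesn2) and 0 of 9 elongation factors, all higher in old mice. The largest of them was Ncl, nucleolin (log2 difference 0.42, SE 0.07, limma adjusted p = 0.0171). In SOL OE/YE, where 2.78% of all genes passed, these were 1 of 9 elongation factors (Eef2), 1 of 31 initiation factors (Eif4b), 2 of 42 biogenesis genes (Polr1a and Nop14) and 2 of 23 mTORC1 and growth control genes (Eif4ebp2 and Mtor), all higher in old mice, Mtor by 0.47 on the log2 scale (SE 0.08, limma adjusted p = 0.0202). Several of these counts are close to the share of all genes, and no difference from the ribosomal protein genes was tested.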

How the data were processed

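The members and gene lists were chosen with earlier results of these data known. By the study's methods, TruSeq Stranded mRNA libraries of total muscle RNA were sequenced on a NovaSeq. Per the labels, HISAT2 2.1.0 and StringTie 1.3.4d were among the tools and mm10 was the build. The authors deposited the FPKM of 18795 genes in 24 libraries. The authors also deposited log2 values, log2(FPKM + 1) after quantile normalization of the 24 libraries, which a repeat matched within 5e-09. The 24 columns of the authors' own comparisons (folds and p-values) were not used.

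Groups were taken from the labels. All 85 member IDs were found in the GRCm38.p6 annotation. limma 3.58.1 (R 4.3.3) with an intensity trend was fitted to the deposited log2 values, over the 12 libraries of a muscle for age and exercise and over all 24 for muscles and interactions, two-sided, with Benjamini-Hochberg adjustment over all genes and a threshold of 0.05. The fit was tested on simulated data. Ratios were tested with SciPy 1.17.1 in Python 3.11.15. Members were named as paralog pairs, for their roles (Rplp0, Rplp1, Rplp2, Rps6, Rpsa and Rps27a), as the 3 most and 3 least abundant, and per comparison as the 5 largest passing rises and falls, or the 2 of lowest p. For other lists up to 3 genes of lowest adjusted p were named. Other members named were picked after their values were seen. SOL and GAS libraries taken as one mouse deviated with correlations between -0.03 and 0.35 over 7966 genes. Their pairing rests on the group and replicate number. Alternatives were the equal-variance test per gene, no quantile normalization, median-ratio scaling, a pseudocount of 0.1, a filter of FPKM 1 in 3 libraries, a fit of only the libraries compared, a replicate block and each library left out. Summed copies, pooled groups and paralog ratios were added after seeing the data.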

Additional observations from a re-analysis of the deposited data

How the results depend on the processing

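Between muscles, the count of members past the test stayed within 1.5 times of the reported one under every alternative tried, and the median stayed negative (-0.98 to -0.44). With each library left out in turn the count was 62 to 75. With a replicate block for the mouse (the paired fit) it was 71, 73, 73 and 76 in YC, YE, OC and OE. Under the other alternatives it was 53 to 80. Without quantile normalization the median of all genes in YC was 0.11, and 60 members passed against a member median of -0.44. For age, exercise and the interactions the count was 0 with each library left out, with the replicate block and under the other alternatives, except that pooling control and exercised mice, 6 old against 6 young, gave 5 in SOL in place of the 0 of SOL OC/YC and of SOL OE/YE. That fit sets 6 libraries against 6. For age and exercise the block was the replicate number within a muscle, which joins different mice and is no paired fit. For the interactions it was the mouse. Of 1305 alternative values for 89 passing results of named members, 1211 kept direction and call, 91 lost the call and 3 changed direction: Rps13 in YC with median-ratio scaling (-0.055), Rps27 in OC when summed with Rps27rt (-0.99) and Rpl7l1 in OE without quantile normalization (0.028, against -0.22). The sum adds the FPKM that Rps27rt held. For the other results the cause was not tested. The depth in reads is unknown, so the precision of low members such as Rpl39l cannot be given.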
